A study of Homo sapiens with 8 samples.

Results

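Oxidative phosphorylation is carried out by 5 protein complexes of the inner mitochondrial membrane, and the nuclear genes for their subunits were followed here in HCT116 cells, a human colorectal carcinoma line. Genes were taken by name from the protein-coding rows of the deposited table (NDUFA, NDUFB, NDUFC, NDUFS and NDUFV, SDHA to SDHD, UQCR, COX4 to COX8 and ATP5). Of 58735 genes in the table, 99 had such a name, and the 90 that were at 1 FPKM or more in 2 or more libraries are called members below. FPKM is a fragment count divided by gene length and a library size. The library size behind the deposited values was the authors' own, and the reads recovered in genes were 0.932 to 1.05 times it. The members comprised 37 genes of complex I, 8 complex I assembly factors whose names begin with NDUFAF, 4 of complex II, 9 of complex III, 13 of complex IV and 19 of complex V. NDUFA4 was counted with complex IV, where its protein belongs despite its name. UQCRHL and ATP5S, which the names also take in, are a copy of UQCRH and a coupling factor that is not a core subunit.

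Complex I passes electrons from NADH to ubiquinone, and complex II, which is also the succinate dehydrogenase of the citric acid cycle, feeds electrons from succinate into the same pool. Complex III hands them to cytochrome c and complex IV to oxygen, and the proton gradient built by complexes I, III and IV drives ATP synthase, complex V. Cells without glucose depend on this route for ATP, and many tumour lines rely more on glycolysis while glucose is plentiful.

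All cells expressed an shRNA, a short hairpin RNA that lowers a chosen transcript. Cells with the control shRNA were kept in DMEM with 20 mM or 0 mM glucose for 24 h, and cells with either of 2 shRNAs against MAPKAPK2 were sequenced at 20 mM glucose (shRNA 1 and shRNA 2), with no time given in their labels. MAPKAPK2 encodes MK2, a kinase activated by p38. Each group had 2 libraries, numbered as replicates in the labels. Whether these were grown separately is not stated, and p-values cover only the spread between the sequenced libraries, which may be technical. Fewer cells of a kind and less RNA per cell cannot be told apart in such bulk samples.

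The libraries held 14252316 to 19975449 reads assigned to genes. Both shRNAs lowered MAPKAPK2, from 16.4 and 16.2 FPKM (20 mM controls; 17.9 and 18.9 at 0 mM) to 2.77 and 2.54 for shRNA 1 and 0.982 and 0.800 for shRNA 2. Of 7 colorectal epithelial markers, 6 were above 1 FPKM in each group, with sums of 1219 to 1776 FPKM. Of 10 markers of other cell types, COL1A1 (3.84 to 6.72 FPKM) was the highest, and the sum of the 10 was 4.68 to 8.82 FPKM. COL1A1 fell over both shRNAs by 0.55 on the log2 scale, and INS was at 0 reads throughout. With shRNA 2, 4 of the 6 tested epithelial markers fell (CDH1, EPCAM, KRT8 and KRT18), against 7.73% of all tested genes, EPCAM by 0.69 on the log2 scale (adjusted p = 0.00316). KRT19 did not pass the test (0.35, adjusted p = 0.199), and with shRNA 1 CDH1 rose by 0.89 (adjusted p = 0.00290). Their part in the results below was not tested.

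Of the 90 members, only ATP5MC1 differed from the 20 mM controls with both shRNAs together, and it rose several-fold. ATP5MC1 is 1 of 3 genes, with ATP5MC2 and ATP5MC3, whose precursors differ in the mitochondrial targeting peptide and yield the same mature subunit c, the protein of the rotating ring of ATP synthase. The last 228 bases of the coding sequences, which hold the mature subunit and the stop codon, are shown to make visible where the 3 transcripts can be told apart. They are from GENCODE 29 and run 5′ to 3′, and capitals in the ATP5MC2 and ATP5MC3 lines mark bases that differ from ATP5MC1.
ATP5MC1: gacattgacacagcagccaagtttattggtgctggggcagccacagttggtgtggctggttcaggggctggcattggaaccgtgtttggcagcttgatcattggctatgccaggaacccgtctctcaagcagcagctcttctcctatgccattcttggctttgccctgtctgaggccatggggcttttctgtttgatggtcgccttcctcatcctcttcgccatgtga
ATP5MC2: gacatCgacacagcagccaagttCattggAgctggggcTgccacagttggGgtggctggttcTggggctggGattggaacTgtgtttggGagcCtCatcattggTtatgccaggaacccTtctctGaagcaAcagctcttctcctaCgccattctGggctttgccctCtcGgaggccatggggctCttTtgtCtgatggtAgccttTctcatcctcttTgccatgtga
ATP5MC3: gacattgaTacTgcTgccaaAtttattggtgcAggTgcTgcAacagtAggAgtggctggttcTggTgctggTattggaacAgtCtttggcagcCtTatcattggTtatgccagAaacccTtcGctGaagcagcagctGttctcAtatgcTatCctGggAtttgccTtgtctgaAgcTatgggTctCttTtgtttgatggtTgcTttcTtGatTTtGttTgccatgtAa
ATP5MC1 and ATP5MC2 differed at 25 of these bases (89.0% identical), 23 of them at the last codon position. ATP5MC1 and ATP5MC3 differed at 43 bases (81.1% identical). The longest run without a difference was 17 bases between ATP5MC1 and ATP5MC2 and 11 between ATP5MC1 and ATP5MC3.

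ATP5MC1 (ENSG00000159199) lies on the plus strand of chromosome 17 at 48892765 to 48895871 in GRCh38. The 20 mM controls held 8.98 and 9.80 FPKM of it, followed by 10.5 and 9.05 FPKM at 0 mM, 47.4 and 44.2 FPKM for shRNA 1, and 36.4 and 26.1 FPKM for shRNA 2. All 4 knockdown libraries stood above all 4 control libraries, and the lower shRNA 2 library was still well above the highest control. The means were 9.39 ± 0.57 FPKM (SD, n = 2) for the 20 mM controls, 45.8 ± 2.24 for shRNA 1 and 31.2 ± 7.30 for shRNA 2, ratios of 4.88 and 3.32 to the controls. Behind these values were 365 to 570 reads in each control library and 1097 to 2333 in each knockdown library. On the log2(FPKM + 1) scale the rise was 1.89 (SE 0.14, adjusted p = 0.000653) over both shRNAs, 2.17 (SE 0.16, adjusted p = 0.000795) with shRNA 1 and 1.62 (SE 0.16, adjusted p = 0.00131) with shRNA 2. These 3 rises passed the test in all 15 alternatives tried, and the largest adjusted p among them was 0.0183. By size of rise, ATP5MC1 ranked 6 of 11446 tested protein-coding genes over both shRNAs, 5 with shRNA 1 and 82 with shRNA 2. The rise was smaller with shRNA 2, at -0.56 against shRNA 1 (SE 0.16, adjusted p = 0.0493). That difference between the shRNAs passed the test in 6 of the 15 alternatives. MAPKAPK2 itself was lower with shRNA 2 than with shRNA 1, and a relation of its level to the size of the rise was not tested.

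The sister genes did not pass the test in these comparisons. ATP5MC2 was at 20.6 and 22.1 FPKM in the 20 mM controls, 25.6 and 23.5 at 0 mM, 25.0 and 22.2 with shRNA 1, and 26.0 and 21.0 with shRNA 2. ATP5MC3 was at 19.3 and 19.8 FPKM in the 20 mM controls, 18.9 and 16.2 at 0 mM, 16.2 and 16.1 with shRNA 1, and 28.0 and 19.2 with shRNA 2. The log2 differences over both shRNAs were 0.13 (SE 0.11, adjusted p = 0.443) for ATP5MC2 and -0.02 (SE 0.15, adjusted p = 0.959) for ATP5MC3. By FPKM, ATP5MC1 was the lowest of the 3 in every control library and the highest in every knockdown library. Its share of the summed FPKM of the 3 genes was 18.4% to 19.1% in the 4 control libraries, 53.5% and 53.6% with shRNA 1, and 40.3% and 39.3% with shRNA 2. The sum itself was 48.8 to 55.0 FPKM in the controls, 88.6 and 82.6 with shRNA 1, and 90.4 and 66.2 with shRNA 2. Rank, share and sum compare different genes, so they depend on the annotated lengths by which FPKM divides. These were 2615, 3991 and 6780 bases for ATP5MC1, ATP5MC2 and ATP5MC3, against median transcripts of 503.5, 811.5 and 842 bases. Another choice of length could change the order of the genes. The 7 named ATP5MC1 pseudogenes held at most 21 reads in any library, and 1.43% of the 50-base stretches of ATP5MC1 transcripts also occur in another gene.

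**Figure D1:**
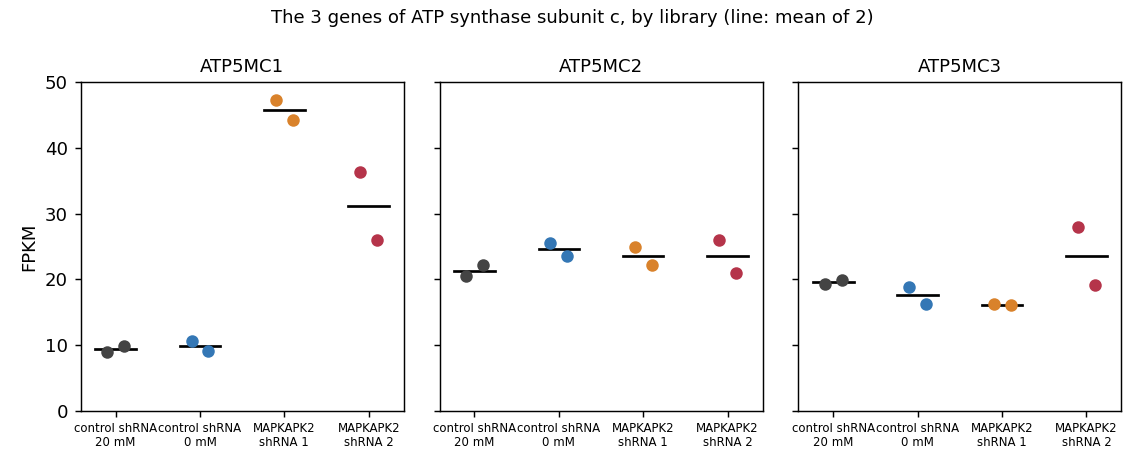
FPKM of ATP5MC1, ATP5MC2 and ATP5MC3 in each of the 8 libraries, by group, with a line at the mean of 2. ATP5MC1 lies between 8.98 and 10.5 in the controls and between 26.1 and 47.4 in the knockdowns, while the other 2 genes lie between 16.1 and 28.0 throughout.

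Promoters are shown because NRF1, ETS factors such as GABP, ERR and YY1 are the regulators best known for nuclear respiratory genes. Windows from 250 bases before to 50 after a transcription start were taken from RefSeq (GRCh38.p14). They were matched by Ensembl identifier, or else by symbol, for 73 of the 90 members, 91 windows in all. The 250 bases before the start are printed 5′ to 3′ on the gene's strand for the member that rose and for SDHA and UQCRC1. The promoter of SDHA repeats the NRF1 letters. UQCRC1 was the only member differing between the shRNAs with the NRF1 motif in a matched window. The windows of ATP5MC1, ATP5MD, NDUFAF1, NDUFS4 and UQCRC2, which also differed, lacked it, and NDUFB5 had no matched window. Capitals mark CCAAT and TGACGTCA in the first line, and the NRF1 motif in the other lines.
ATP5MC1 chr17:48892537-48892786 (plus strand): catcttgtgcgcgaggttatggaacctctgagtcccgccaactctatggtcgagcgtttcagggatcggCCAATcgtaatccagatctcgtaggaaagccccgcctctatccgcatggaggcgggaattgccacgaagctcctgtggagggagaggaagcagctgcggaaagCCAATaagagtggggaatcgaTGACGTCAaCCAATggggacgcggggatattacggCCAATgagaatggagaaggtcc
SDHA chr5:218070-218319 (plus strand): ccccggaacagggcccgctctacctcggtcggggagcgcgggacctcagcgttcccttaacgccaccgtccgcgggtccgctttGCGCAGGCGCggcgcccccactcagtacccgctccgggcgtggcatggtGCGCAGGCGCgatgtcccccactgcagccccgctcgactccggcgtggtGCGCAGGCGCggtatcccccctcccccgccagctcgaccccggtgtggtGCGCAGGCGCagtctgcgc
UQCRC1 chr3:48609647-48609896 (minus strand): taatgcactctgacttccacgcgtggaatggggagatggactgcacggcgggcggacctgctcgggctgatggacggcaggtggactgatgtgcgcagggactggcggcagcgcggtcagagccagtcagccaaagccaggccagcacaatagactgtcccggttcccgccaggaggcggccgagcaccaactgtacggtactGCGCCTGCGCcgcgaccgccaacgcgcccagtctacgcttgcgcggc
The ATP5MC1 window held TGACGTCA, the cyclic AMP response element, at 57 to 50 bases before the start, and CCAAT 4 times, at 181, 78, 48 and 22 bases before it. It held none of the letters searched for NRF1, ETS, ERR or YY1. Searched on both strands in the 300-base windows, the NRF1 motif was present for 23.3% of the 73 matched members and 6.98% of all 27305 genes with a window. These 27305 genes were not filtered by level, unlike the members. CCGGAAG (ETS) was present for 31.5% of members and 12.2% of all genes, and the YY1 motif for 12.3% and 1.46%. TCAAGGTCA (ERR) was found for SDHD alone among the members, 1.37% against 0.432%. TGACGTCA and CCAAT were added after the ATP5MC1 window had been seen, so ATP5MC1 was bound to be counted for both. The first was present for 6.85% of members (ATP5MC1, ATP5ME, NDUFA10, NDUFB2 and SDHB) and 2.25% of all genes, the second for 37.0% and 39.7%. ATP5MC1 was the only member of the 90 called over both shRNAs, so the other 4 with TGACGTCA were bound not to be called. A relation between the motif and the rise was not tested.

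In the 20 mM controls the mean levels of the 90 members ran from 0.866 FPKM for ATP5S to 400 FPKM for ATP5F1B, the catalytic beta subunit of ATP synthase, with a median of 19.6 FPKM. Complex IV had the highest median (50.9 FPKM), followed by complex III (31.5), complex V (21.3), complex II (17.5), complex I (16.5) and the NDUFAF assembly factors (10.4). Within complex II, SDHB, the iron-sulfur subunit, was at 34.6 FPKM, and SDHC, a membrane anchor, at 7.66 FPKM. FPKM divides by the summed length of all annotated exons, which was 14160 bases for SDHC against a median transcript of 460, so levels between genes depend on the annotation. Exon bases were shared with another gene for 48 members, over 20% of them for 18. Some of these pairs lay on the same strand and others on opposite strands. Strand can separate only the latter, and whether it was used in counting is not given. NDUFV2, the lowest of complex I at 1.13 FPKM, had 28.4% of its exon bases in common with a neighbour. For 10 members over 20% of 50-base stretches also occur in another gene, NDUFA7 with 73.7% and ATP5PO with 64.3% the most.

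**Figure D2:**
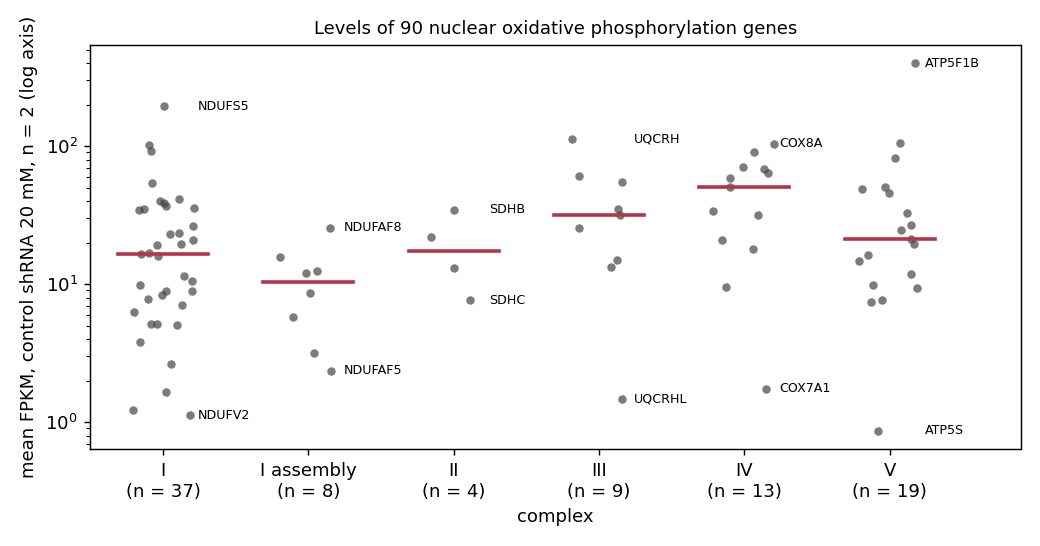
Mean FPKM of each member in the 2 control shRNA libraries at 20 mM glucose (log axis), by complex, with a line at the median and the highest and lowest gene named. Medians run from 10.4 FPKM for the assembly factors to 50.9 FPKM for complex IV, and ATP5F1B is highest at 400 FPKM.

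The 9 names that missed the level filter were mostly tissue-restricted isoforms. COX4I2, the hypoxia-induced form of COX4, had 7 reads over all 8 libraries, whereas COX4I1 was at 60.8 and 66.9 FPKM in the 20 mM controls. COX6A2, the form of heart and skeletal muscle, and COX7B2 had 0 reads in every library, and 3 reads in a library would be at most 0.363 and 0.243 FPKM. COX8C had 5 reads in all, COX6B2, the testis form, 132, and ATP5MGL 18. The read-through genes NDUFC2-KCTD14 and ATP5MF-PTCD1 had 0 and 25 reads. NDUFA4L2, a hypoxia-induced relative of NDUFA4, was at 0.447 and 0.120 FPKM in the 20 mM controls, 0.362 and 0.994 at 0 mM, 0.246 and 0.210 with shRNA 1 and 0.282 and 0.111 with shRNA 2. Its highest library, at 0 mM glucose, rested on 43 reads, and the 2 libraries of that group differed more than the groups did.

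Over both shRNAs against the 20 mM controls, 1 of 90 members was called, against 17.3% of the 16239 genes tested (9.56% up and 7.77% down). A gene was called at a limma adjusted p under 0.05 over all tested genes, and here also with the same sign for both shRNAs. Complex I had 0 of 37 calls, its assembly factors 0 of 8, complex II 0 of 4, complex III 0 of 9, complex IV 0 of 13 and complex V 1 of 19. The median log2 difference of the members was -0.01, as against 0.00 for all tested genes, with 44 members above 0 and 46 below. Members whose 4 knockdown libraries all lay above both 20 mM controls numbered 6, against 16.0% of all genes: ATP5MC1, ATP5MPL, ATP5PF, NDUFAF2, UQCR10 and COX7A2L. Those lying all below numbered 5, against 14.9%: NDUFA9, NDUFA13, NDUFB10, SDHC and ATP5F1B.

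Some of these members came near the threshold. ATP5MPL, a small ATP synthase-associated protein, was at 9.59 and 13.9 FPKM in the 20 mM controls, 16.0 and 16.0 with shRNA 1, and 20.4 and 16.7 with shRNA 2, a log2 difference of 0.53 (SE 0.15, adjusted p = 0.0524). NDUFAF2, a complex I assembly factor, was at 9.64 and 14.5 FPKM in the controls, 20.3 and 21.0 with shRNA 1, and 26.5 and 15.5 with shRNA 2, a difference of 0.74 (SE 0.23, adjusted p = 0.0686). Neither overlapped the controls, but the controls themselves were far apart in both genes. ATP5F1B was at 389 and 411 FPKM in the controls, 359 and 329 with shRNA 1, and 333 and 324 with shRNA 2, a difference of -0.25 (SE 0.09, adjusted p = 0.0891). In a fit on the recovered reads, 6 members were called, against 22.7% of all genes (11.8% up and 10.9% down). ATP5MC1, ATP5MPL, NDUFAF2 and ATP5PF, a stalk subunit of ATP synthase, rose, and SDHC and NDUFS6, a complex I accessory subunit, fell. NDUFS6 was at 31.9 and 36.8 FPKM in the 20 mM controls and 14.3 and 17.1 with shRNA 1. With shRNA 2 it was at 40.8 and 19.8 FPKM, so the knockdown libraries overlapped the controls. On the log2(FPKM + 1) scale NDUFS6 did not pass over both shRNAs (-0.67, limma adjusted p = 0.154) or with shRNA 1 (-1.08, adjusted p = 0.0618).

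With shRNA 1 alone, 3 of 90 members were called, against 19.8% of all genes (9.35% up and 10.5% down). Besides ATP5MC1, 2 fell. UQCRC2, a core subunit of complex III, was at 34.1 and 35.6 FPKM in the 20 mM controls, 25.9 and 24.0 with shRNA 1, and 33.3 and 36.2 with shRNA 2. Only the shRNA 1 libraries were low, by a log2 difference of -0.47 (SE 0.09, adjusted p = 0.0150). SDHC was at 7.22 and 8.09 FPKM in the controls, 5.62 and 5.77 with shRNA 1, and 6.86 and 6.66 with shRNA 2. The fall with shRNA 1 was -0.37 (SE 0.09, adjusted p = 0.0356), and it passed the test in 8 of 15 alternatives, UQCRC2 in 11. The other complex II genes did not pass, with log2 differences of -0.19 for SDHA, the flavoprotein subunit, -0.29 for SDHB and -0.26 for SDHD, the second membrane anchor. The median of the members was -0.16, with 60 of 90 below 0, and that of all tested genes -0.01. After a trend with GC content and mRNA length had been removed from each library, the members' median was -0.098. That of the 11430 protein-coding genes in this fit was 0.0030. Complex IV had a median of -0.28 with 11 of 13 members below 0, though 0 were called. Both shRNA 1 libraries lay below both controls for 41 members, against 34.0% of all genes, and above them for 13, against 31.7%.

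With shRNA 2 alone, 6 of 90 members were called, all of them higher, against 18.8% of all genes in either direction 11.1% upward and 7.73% downward. They were ATP5MC1, ATP5MPL, ATP5F1C, UQCR10, NDUFS4 and NDUFB5. UQCR10, a small complex III subunit, was at 33.0 and 30.0 FPKM in the 20 mM controls, 33.7 and 36.5 with shRNA 1, and 61.0 and 41.9 with shRNA 2. The rise with shRNA 2 was 0.67 (SE 0.17, adjusted p = 0.0351), with its first library far above its second. ATP5F1C, the gamma subunit that forms the rotor shaft, was at 48.8 and 51.6 FPKM in the controls and at 68.5 and 62.8 with shRNA 2, a rise of 0.38 (SE 0.09, adjusted p = 0.0289). NDUFS4, a complex I subunit mutated in Leigh syndrome, was at 23.9 and 29.3 FPKM in the controls and at 46.3 and 35.7 with shRNA 2. It rose by 0.60 (SE 0.17, adjusted p = 0.0479). NDUFB5, a membrane-arm subunit, was at 7.41 and 8.16 FPKM in the controls and at 11.3 and 10.4 with shRNA 2, a rise of 0.43 (SE 0.11, adjusted p = 0.0366). ATP5MPL rose by 0.63 (SE 0.17, adjusted p = 0.0483). Apart from ATP5MC1, each of these 5 calls was lost in 7 to 10 of the 15 alternatives. The median of the members was 0.14, with 66 of 90 above 0, as against 0.01 for all tested genes, and it was 0.084 with that trend removed. Both shRNA 2 libraries lay above both controls for 22 members, against 29.9% of all genes, and below them for 6, against 27.5%.

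**Figure D3:**
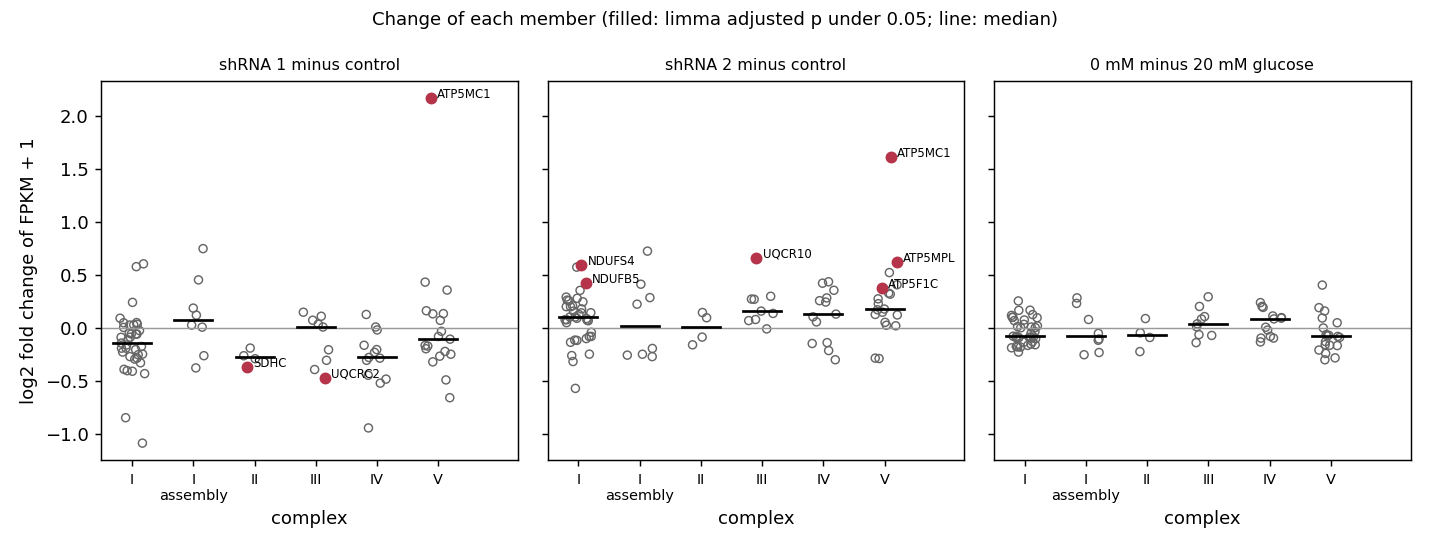
Log2 fold change of FPKM + 1 for each of the 90 members by complex, for shRNA 1, shRNA 2 and 0 mM glucose, each against the 20 mM controls; filled points passed the test and lines are medians. ATP5MC1 stands apart at 2.17 and 1.62 in the knockdown panels, and no point is filled in the glucose panel.

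Compared directly, 7 of 90 members differed between the shRNAs, against 22.2% of all genes, and 6 were higher with shRNA 2 (13.0% of all genes were higher and 9.13% lower). Complex III contributed its core proteins 2 and 1, UQCRC2 (0.46, SE 0.09, adjusted p = 0.0138) and UQCRC1 (0.44, SE 0.09, adjusted p = 0.0181). UQCRC1 was at 60.9 and 59.6 FPKM in the controls, 50.8 and 46.7 with shRNA 1, and 70.4 and 62.9 with shRNA 2, so that the controls lay between the shRNAs. NDUFS4 (0.74) and NDUFB5 (0.42) of complex I and ATP5MD, an ATP synthase membrane subunit (0.47, adjusted p = 0.0487), were also higher with shRNA 2. The calls of ATP5MD and NDUFB5 between the shRNAs were lost in 10 and 9 of the 15 alternatives, and those of NDUFS4 and NDUFAF1 in 4 each and of UQCRC1 and UQCRC2 in 3 each. NDUFAF1, an assembly factor, was at 7.78 and 9.57 FPKM in the controls, 5.99 and 6.91 with shRNA 1, and 13.3 and 10.6 with shRNA 2. Its difference was 0.79 (SE 0.19, adjusted p = 0.0292). The seventh was ATP5MC1, lower with shRNA 2. Over all members the median was 0.27, with 71 of 90 above 0, as against 0.03 for all tested genes. It was 0.074 without the first shRNA 2 library and 0.45 without the second. Both shRNA 2 libraries lay above both shRNA 1 libraries for 42 members, against 32.0% of all genes, and below them for 8, against 27.9%.

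The 2 libraries of shRNA 2 were not alike for these genes. In the first, the members stood a median of 0.33 (log2) above the 20 mM controls, in the second -0.025. Of 90 members, 81 were higher in the first library, by a median of 0.39, while the median over 11430 protein-coding genes was 0.00. COX6A1, a complex IV subunit, was at 62.7 and 19.3 FPKM in these 2 libraries, COX8A, another, at 242 and 82.6, and ATP5ME, of ATP synthase, at 19.9 and 5.68. Reads of these genes may be partly those of others. ATP5ME and COX8A had 61.6% and 34.5% of their exon bases in common with another gene. For COX6A1, 44.0% of 50-base stretches also occur in another gene. ATP5IF1, the inhibitor of ATP synthase, was at 51.0 and 18.7 FPKM, between which the 20 mM controls (23.4 and 25.9) lay. The 2 libraries at 0 mM glucose differed in the same sense for 69 of 90 members, with COX6A1 at 47.8 and 26.8, COX8A at 167 and 91.4, and ATP5ME at 20.5 and 8.28 FPKM. Across the members the differences within these 2 groups had a Spearman coefficient of 0.68, and over 11430 protein-coding genes it was 0.59. These are descriptions over genes, which are not independent. Over 11430 protein-coding genes the difference between the shRNA 2 libraries had a Spearman coefficient of 0.64 with the GC content of the mRNA, and that between the 0 mM libraries 0.53. Over the members the coefficients were 0.39 and 0.47. With the trend with GC content and mRNA length removed, the members' median difference between the shRNA 2 libraries was 0.27, and the coefficient between the differences within the 2 groups was 0.62. The median of shRNA 2 against shRNA 1 was then 0.15. The part of GC content in the members' differences between groups was not tested. That fit used only the 11430 protein-coding genes, and in it 13 members were called over both shRNAs (40.2% of those genes), 12 with shRNA 1 (45.2%), 16 with shRNA 2 (44.1%), 19 between the shRNAs (47.4%) and 0 for glucose (0.700%). Without that removal, a fit of the 11446 tested protein-coding genes alone called 5 members over both shRNAs (30.8% of those genes), 6 with shRNA 1 (34.6%), 11 with shRNA 2 (33.2%) and 24 between the shRNAs (37.7%). The read-based fit called 7 members with shRNA 1 (25.5% of all genes), 10 with shRNA 2 (24.2%) and 24 between the shRNAs (28.4%).

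**Figure D4:**
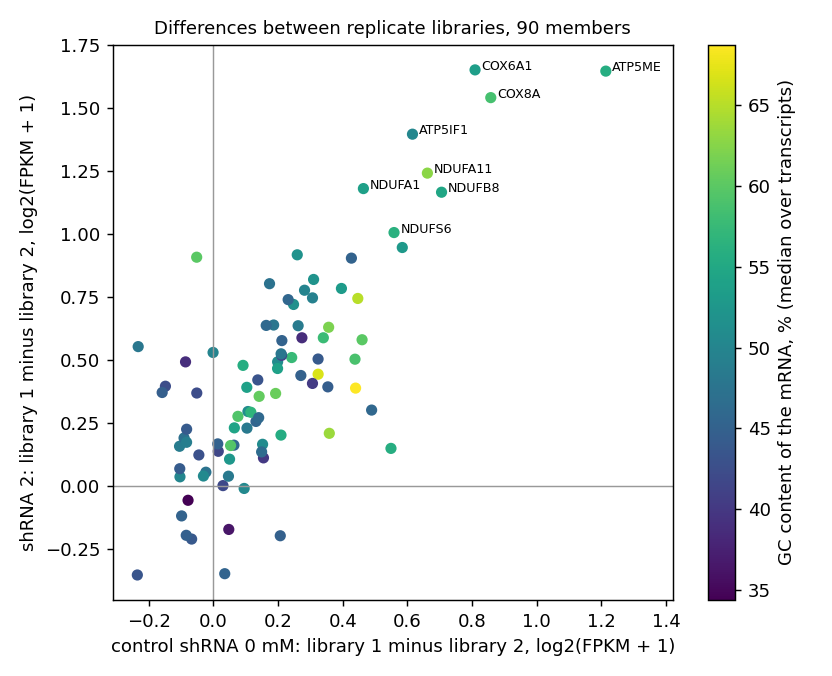
Difference between library 1 and library 2 in log2(FPKM + 1) for each of the 90 members, at 0 mM glucose (x axis) and with shRNA 2 (y axis), coloured by mRNA GC content in percent. Most points lie above 0 on both axes (69 and 81 of 90), with COX6A1, ATP5ME and COX8A at the upper right.

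**Figure D5:**
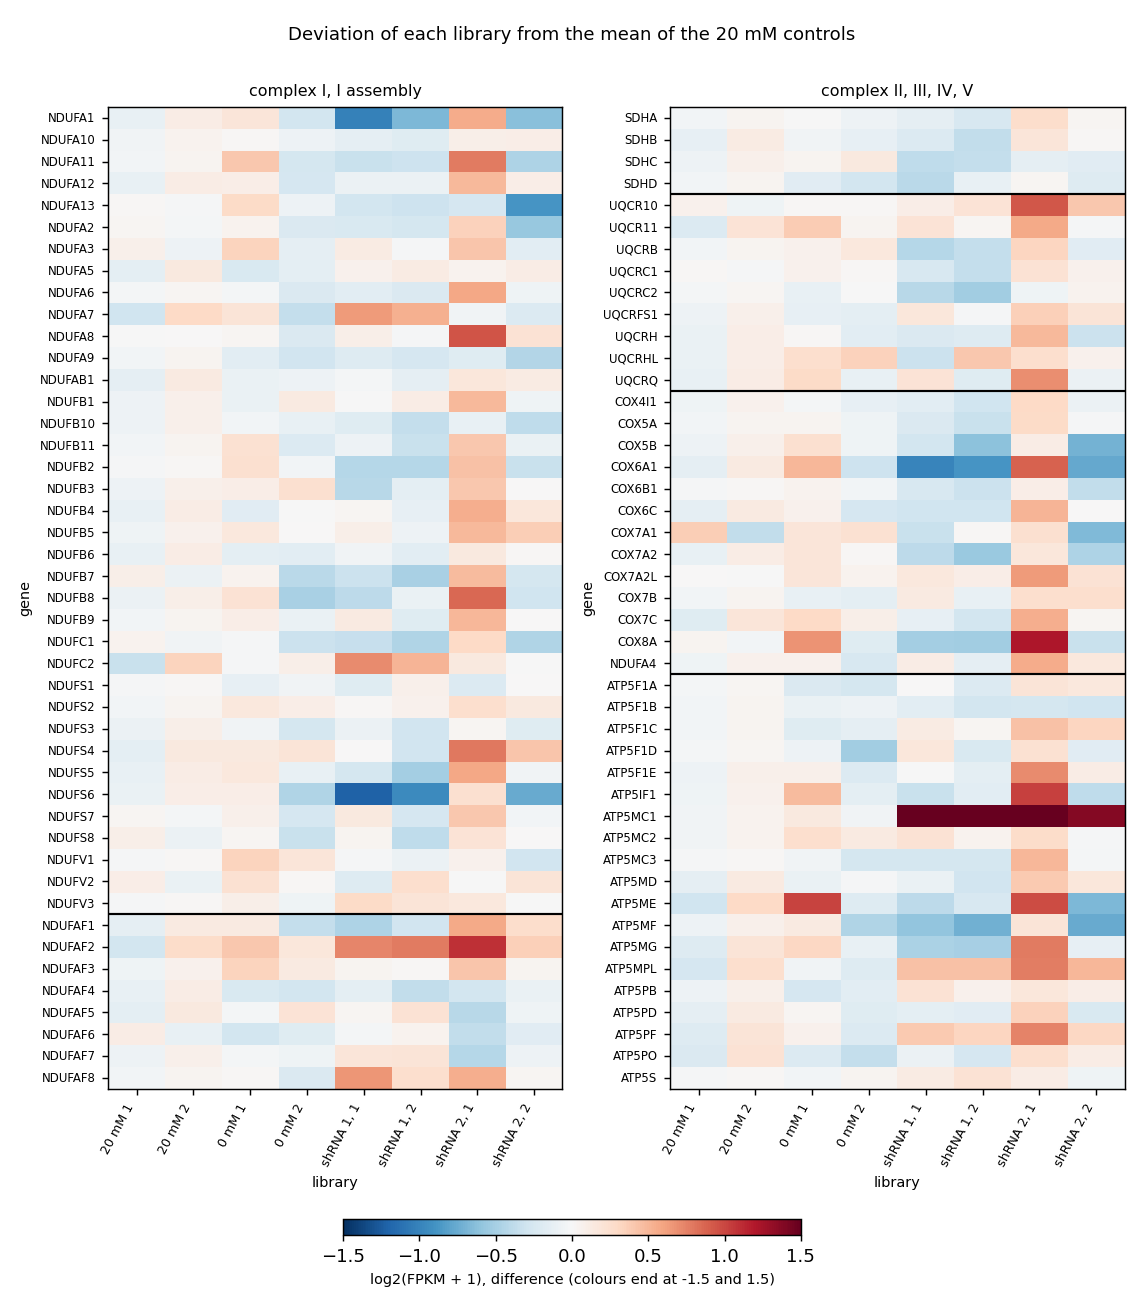
Deviation of each library (columns) from the mean of the 20 mM controls in log2(FPKM + 1), for each member (rows) grouped by complex; colours end at -1.5 and 1.5. The first shRNA 2 library is mostly above the controls, and ATP5MC1 is the darkest row in all 4 knockdown columns.

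After 24 h without glucose, 0 of 90 members were called, and 0% of all tested genes were. The lowest adjusted p was 0.555 among the members and 0.0863 among all genes. At an unadjusted p under 0.05 there was 1 member and 1421 genes, and the fit on recovered reads called 0 members and 28 genes (0.172%). The member was ATP5F1A, the alpha subunit of ATP synthase, at 44.6 and 46.6 FPKM at 20 mM and 39.2 and 37.9 at 0 mM, a log2 difference of -0.24 (SE 0.10, adjusted p = 0.555). ATP5PB, a stator subunit, was at 46.4 and 52.0 against 41.0 and 44.1 FPKM, and NDUFAF4 at 11.4 and 13.5 against 10.5 and 10.1. NDUFV1, the complex I subunit that binds NADH, was at 22.8 and 23.3 against 29.2 and 26.4 FPKM. In all 4 genes the 2 groups did not overlap, which held for 10 members above, against 19.1% of all genes, and 15 below, against 22.2%. The median of the members was -0.05, with log2 differences from -0.30 to 0.41, and no complex median was further from 0 than complex IV at 0.09.

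Other members of known role did not pass the test. COX4I1 was at 60.8 and 66.9 FPKM in the controls, 57.3 and 51.5 with shRNA 1, and 79.0 and 60.0 with shRNA 2. COX7A2L, which joins complexes III and IV into supercomplexes, was at 9.51 and 9.49 FPKM in the controls, 10.7 and 10.3 with shRNA 1, and 15.3 and 11.2 with shRNA 2 (0.28 over both, SE 0.12, adjusted p = 0.169). NDUFA4 was at 20.0 and 21.9 FPKM in the controls and 19.0 to 31.4 in the knockdowns. UQCRFS1, the Rieske iron-sulfur protein, was at 23.8 and 26.8 FPKM in the controls and 24.9 to 32.7 in the knockdowns. NDUFS1, the largest subunit of complex I, was at 8.74 and 9.00 FPKM in the controls and 7.57 to 9.42 in the knockdowns. The adjusted p of these 5 was above 0.05 in each of the 5 comparisons.

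Genes that work with the members were examined in lists. Of 49 tested assembly factors outside the naming rule, 1 rose and 3 fell over both shRNAs. Beside this and the lists below stand 9.56% of all tested genes that rose and 7.77% that fell. The median of the assembly factors was 0.02. LYRM7, which matures the Rieske protein of complex III, rose by 0.50 (adjusted p = 0.0372). TACO1, needed to translate a complex IV subunit, was at 20.5 and 18.3 FPKM in the controls, 7.39 and 9.32 with shRNA 1 and 16.8 and 14.2 with shRNA 2, and fell by 0.72 (adjusted p = 0.00802). DMAC2 fell by 0.57 (adjusted p = 0.00872) and ACAD9, a complex I assembly factor, by 0.34 (adjusted p = 0.0496). TTC19, a complex III factor, was at 10.8 and 10.5 FPKM in the controls, 23.9 and 20.8 with shRNA 1, and 8.18 and 8.49 with shRNA 2. It rose with shRNA 1 by 1.00 (adjusted p = 0.00178) and differed between the shRNAs by -1.32 (adjusted p = 0.000577). ECSIT, a complex I assembly factor, rose with shRNA 2 by 0.78 (adjusted p = 0.0227).

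Of 15 tested mobile carriers and ubiquinone enzymes, 0 rose and 1 fell over both shRNAs, COQ2 (-0.41, adjusted p = 0.0333), which acts in ubiquinone synthesis. The 13 subunits encoded on mitochondrial DNA had a median of 0.34 over both shRNAs, 11 of 13 above 0, and one of 0.23 at 0 mM glucose, also 11 of 13 above 0, where 0 were called. Of them MT-ND6 rose (0.69, adjusted p = 0.0380), at 1426 and 1775 FPKM in the controls, 2283 and 2640 at 0 mM, and 2100 to 2993 in the knockdowns. Of 18 tested regulators of mitochondrial gene expression, 2 rose and 1 fell. NRIP1, a corepressor, rose by 0.84 (adjusted p = 0.0136) and TFAM, which packages and transcribes mitochondrial DNA, by 0.41 (adjusted p = 0.0353). PPRC1, a coactivator, fell by 0.33 (adjusted p = 0.0367). TFAM was at 8.82 and 8.65 FPKM in the controls, 10.7 and 13.1 with shRNA 1, and 11.4 and 12.8 with shRNA 2, without overlap.

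Of 77 tested mitochondrial ribosomal protein genes, 2 rose and 4 fell over both shRNAs, with a median of -0.10. MRPL49 fell most clearly, from 39.3 and 42.3 FPKM to 25.4 and 25.0 with shRNA 1 and 18.8 and 17.7 with shRNA 2 (-0.90, adjusted p = 0.000905). Of 77 cytosolic ribosomal protein genes, 0 rose and 3 fell, with a median of -0.22 and 70 of 77 below 0. The read-based fit called 14 of these 77 as lower, against 10.9% of all genes. The fit with the GC and length trend removed called 22 as lower and 0 as higher. It called 40.2% of its genes in either direction, and the share called lower was not taken for it. Of 8 tested HIF targets that limit or switch respiratory chain use, 2 rose over both shRNAs. BNIP3L, a mitophagy receptor, was at 7.82 and 9.10 FPKM in the controls, 13.6 and 13.7 with shRNA 1, and 40.8 and 37.1 with shRNA 2 (1.36, adjusted p = 0.000581). PDK1, which inhibits pyruvate dehydrogenase, rose by 0.75 (adjusted p = 0.00999). LDHA, lactate dehydrogenase A, was at 114 and 131 FPKM in the controls, 114 and 101 with shRNA 1, and 335 and 294 with shRNA 2. Between the shRNAs, 6 of these 8 genes were higher with shRNA 2 and 1 was lower, against 13.0% and 9.13% of all genes.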

How the data were processed

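RNA of 8 HCT116 libraries (4 groups of 2) was sequenced. The authors deposited FPKM per gene. The tools named in the submitters' processing notes are DESeq2 1.20.0, featureCounts 1.5.0-p3 and HISAT2 2.0.5. The role and settings of each tool, and strand, are not given in the sources used here. Gene starts and ends equal those of GENCODE 29 for all 58735 genes. The deposited gene lengths were used with FPKM to recover reads per gene, and 100% of values came out whole within 0.001 of a step.

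Here, log2 values of the deposited FPKM + 1 were fitted with limma 3.58.1 (R 4.3.3), 4 group means, an intensity trend, over the 16239 genes at 1 FPKM or more in 2 or more libraries, with Benjamini-Hochberg adjustment. Controls are shared between comparisons. The script was tested on simulated data. The read-based fit used limma voom. Alternatives covered the pseudocount (0.1), filter, scaling, gene set, replicate block and each library left out. A GC and length trend was removed, in a fit of 11430 protein-coding genes, as an alternative chosen after seeing the data. Members and gene lists were chosen with earlier results of these data known. Members named were a set list of 19, up to 3 rising and 3 falling members called per complex and comparison, and for glucose the 4 with the smallest p; for each list, up to 3 called genes of smallest p. Further members were named after their values were seen: those near the threshold, apart between groups, or with the widest replicate differences, and LDHA. Sequences are from GENCODE and RefSeq, and were searched by script.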

Additional observations from a re-analysis of the deposited data

Results flagged for a closer look

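In 7 of 90 members the effects of the 2 shRNAs differed, as tested by shRNA 2 against shRNA 1 in limma. The same test called 22.2% of all tested genes. The log2 differences were -0.56 for ATP5MC1, 0.47 for ATP5MD, 0.79 for NDUFAF1, 0.42 for NDUFB5, 0.74 for NDUFS4, 0.44 for UQCRC1 and 0.46 for UQCRC2. ATP5MC1 rose with both shRNAs and differed in size. UQCRC2 was lower than the controls with shRNA 1 and level with them with shRNA 2, and NDUFS4 and NDUFB5 were higher with shRNA 2. These calls did not hold in every alternative. With 1 library left out, the log2 differences ran from -0.79 to -0.32 for ATP5MC1 and from 0.36 to 0.58 for ATP5MD. They ran from 0.64 to 0.94 for NDUFAF1, 0.34 to 0.50 for NDUFB5 and 0.56 to 0.92 for NDUFS4. For UQCRC1 they were 0.36 to 0.52 and for UQCRC2 0.40 to 0.52.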

How the results depend on the processing

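The rise of ATP5MC1 kept its direction and its side of the threshold in every alternative run, over both shRNAs and with each of them. Counts of members called varied more, and the share of all genes called in the same fit stands in brackets. Over both shRNAs (1) they were 6 read-based (22.7%), 3 with quantile normalization (18.1%), 5 with protein-coding genes only (30.8%) and 13 with protein-coding genes and the GC and length trend removed (40.2%). With shRNA 1 (3) they were 7 read-based (25.5%), 6 protein-coding only (34.6%) and 12 with the trend also removed (45.2%). With shRNA 2 (6) they were 2 with no filter (6.14%), 10 read-based (24.2%), 11 protein-coding only (33.2%) and 16 with the trend also removed (44.1%). Between the shRNAs (7) they were 2 with no filter (7.52%), 24 read-based (28.4%), 4 with quantile normalization (22.1%), 24 protein-coding only (37.7%) and 19 with the trend also removed (47.4%), and the median of the members was 0.12 with quantile normalization. Leaving out 1 library gave 1 to 13 calls over both shRNAs (4.22% to 21.2%), 1 to 12 with shRNA 1 (5.80% to 25.0%), 1 to 12 with shRNA 2 (6.25% to 18.6%) and 0 to 38 between the shRNAs (8.22% to 21.4%). The 13 (2 up, 11 down) came without the first shRNA 2 library (21.2%) and the 38 without the second (21.4%). Medians ranged from -0.08 to 0.10 over both shRNAs, -0.22 to -0.07 with shRNA 1, -0.025 to 0.33 with shRNA 2, 0.074 to 0.45 between the shRNAs and -0.12 to 0.06 for glucose. The cause of these shifts was not tested. A lone library is assumed to vary like the others. With the replicate number as a block, 0 members were called for glucose (0%), 1 over both shRNAs (18.6%), 4 with shRNA 1 (21.4%), 4 with shRNA 2 (20.5%) and 8 between the shRNAs (23.4%). Same-numbered libraries of the 0 mM and shRNA 2 groups deviated together (r = 0.18 over 16239 genes), while r was -0.03 to 0.07 for the other pairs of groups. Spearman coefficients with the difference between the shRNA 2 libraries were higher over 11430 protein-coding genes. They were 0.59 for the 0 mM difference, 0.34 for shRNA 1 and -0.06 for the 20 mM controls. The labels name no shared culture or day, so the numbers were not taken to pair the samples. Whether same-numbered libraries share a batch was not tested. The planned edgeR and DESeq2 fits were not run, and limma voom was the only fit on recovered reads. Depth limits the lowest genes: 3 reads are up to 0.368 FPKM for COX8C.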
